A study of Mus musculus with 10 samples.

Results

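The calcitonin gene family and its receptors were followed in mouse small cell lung cancer, a cancer of neuroendocrine character known for early spread, also to the liver. The 10 genes were taken by symbol, out of 35288 genes measured: the peptide genes Calca, Calcb, Iapp, Adm and Adm2, the receptor genes Calcr and Calcrl, and the genes Ramp1, Ramp2 and Ramp3 of the receptor activity-modifying proteins. All 10 had a single entry. RNA sequencing gave 10 libraries from 6 mice in 4 groups: lung tumors of RPR2 mice (n = 3) and of RPR2;Nfibf/f mice (n = 3), and liver metastases of RPR2 mice (n = 2) and of RPR2;Nfibf/f mice (n = 2). All 4 groups share RPR2, the conditional loss of Rb1, Rbl2 and Trp53, which are tumor suppressor genes. RPR2;Nfibf/f mice carry in addition floxed alleles of Nfib, a transcription factor gene of the nuclear factor I family, and are called Nfib-floxed here. The sources used here do not give ages, treatments or the way in which the alleles were recombined. Mice JHK1373 and JHK1394 (RPR2) and JHK1398 and JHK1399 (Nfib-floxed) gave a lung tumor and a liver metastasis each, while JHK1548 (RPR2) and JHK997 (Nfib-floxed) gave a lung tumor only. The tumors were macrodissected, so a library holds tumor cells together with vessels, immune cells and neighboring tissue. Fewer cells of a type and less RNA per cell therefore cannot be told apart.

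Levels are given in TPM, a unit of transcript abundance in which read estimates are scaled by gene length and by library, so that levels of different genes can be set side by side. All libraries have the same sum, and the depth behind a value is unknown. Differences are on the log2(TPM + 1) scale, which understates the change of genes with low levels. They were tested with limma over the 15503 genes whose mean reached 1 TPM. The threshold was an adjusted p (Benjamini-Hochberg) under 0.05. Of the 10 members 9 entered the test, all but Calcr.

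The peptides of the family share a small disulfide ring near the amino end and an amidated carboxyl end. Calca makes calcitonin, a thyroid hormone of calcium balance, or the vasodilator neuropeptide alpha-CGRP, depending on which exon is kept when its RNA is spliced. Pulmonary neuroendocrine cells are a classic source of CGRP, and Calca is widely used to mark them and tumors derived from them. Calcb encodes beta-CGRP, Iapp encodes amylin, the islet peptide released with insulin, and Adm and Adm2 encode adrenomedullin and intermedin, which act on blood vessels. The receptor CALCRL binds CGRP when paired with RAMP1, and adrenomedullin when paired with RAMP2 or RAMP3, whereas CALCR is the calcitonin receptor and becomes an amylin receptor with a RAMP partner. CALCRL and RAMP2 are abundant on endothelial cells.

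The coding stretches of 5 mature peptides are shown because they set what a value per gene can and cannot tell apart. They were read from GENCODE transcripts (GRCm38) as the stretch between a basic cleavage site and the amidation signal around the ring. Each lies within 1 exon. Calcitonin comes from transcript Calca-202, chr7:114633665-114633760, minus strand, 96 bases, and alpha-CGRP from Calca-201, chr7:114632470-114632580, minus strand, 111 bases. Beta-CGRP comes from Calcb-201, chr7:114721994-114722104, plus strand, amylin from Iapp-201, chr6:142303334-142303444, plus strand, and adrenomedullin from Adm-201, chr7:110628896-110629045, plus strand. In the first 2 lines, capitals mark the bases at which alpha-CGRP and beta-CGRP differ. In the other lines, capitals mark the codons of the cysteines that close the ring.
alpha-CGRP: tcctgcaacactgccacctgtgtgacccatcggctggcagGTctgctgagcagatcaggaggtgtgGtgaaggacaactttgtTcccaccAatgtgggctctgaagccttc
beta-CGRP: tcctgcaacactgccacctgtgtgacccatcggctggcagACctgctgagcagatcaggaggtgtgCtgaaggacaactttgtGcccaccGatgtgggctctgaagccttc
calcitonin: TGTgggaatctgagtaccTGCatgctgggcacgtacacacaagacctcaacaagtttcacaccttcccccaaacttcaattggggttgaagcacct
amylin: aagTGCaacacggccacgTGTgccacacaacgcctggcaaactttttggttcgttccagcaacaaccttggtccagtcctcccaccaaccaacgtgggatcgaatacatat
adrenomedullin: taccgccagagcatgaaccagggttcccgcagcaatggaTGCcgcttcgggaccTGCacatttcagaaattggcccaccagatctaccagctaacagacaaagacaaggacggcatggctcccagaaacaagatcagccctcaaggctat

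The CGRP stretches of Calca and Calcb differed at 5 of 111 bases, which changes 3 of 37 residues, and the longest identical run was 40 bases. Over all GENCODE transcripts of both genes, 33 words of 31 bases were shared, 1.97% of the Calca words and 2.62% of the Calcb words. Short reads from the identical runs fit either gene. Calca exceeded Calcb by 130-fold to 7161-fold, so even a small part of its reads placed on Calcb could weigh heavily there. The shares of words do not bound this error. In the lung tumor of JHK1399 Calca stood 7161-fold above all of Calcb (9.57 TPM), so misplaced reads could not exceed that share of Calca there. Whether this limit holds in the other libraries was not tested, and the size of the error in their Calcb levels is unknown. Calcitonin and alpha-CGRP come from separate exons of Calca, so the value per gene holds their transcripts together and gives no split between them. Calca (chromosome 7, 114631478 to 114636357, minus strand) and Calcb (chromosome 7, 114718643 to 114723365, plus strand) lie 82285 bases apart, and Adm (chromosome 7, 110627661 to 110629820) lies 4001657 bases from Calca.

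Of the whole series, the following bears on the members. Nfib, the floxed gene, stood at 28.3 to 118 TPM in RPR2 lung tumors, 26.5 to 38.6 TPM in Nfib-floxed lung tumors, 62.8 and 643 TPM in RPR2 metastases and 41.3 and 46.1 TPM in Nfib-floxed metastases, and which exons are floxed is not stated in the labels. The lung tumors of JHK1394 and JHK1398 stood apart by their normal lung markers: 5 club cell genes summed to 60565 and 55984 TPM there and to 1677 to 12674 TPM in the other lung tumors. A list of 12 hepatocyte genes summed to 11546 and 12596 TPM in the RPR2 metastases, 3687 TPM in the Nfib-floxed metastasis of JHK1399 and 149 TPM in that of JHK1398, below the 209 to 1440 TPM of the lung tumors. That metastasis of JHK1398 correlated most closely with the RPR2 lung tumor of JHK1373 (r = 0.932 over the genes tested), and at 0.916 with the other Nfib-floxed metastasis. Club cell genes summed to 9.88 TPM in it, against 22.9 to 197 TPM in the other metastases, so its lung markers were as low as theirs while its hepatocyte markers were not as high.

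By limma, 0 of 9 members passed in each of the 6 comparisons. At an unadjusted p under 0.05 the counts were 0 of 9 for genotype in lung tumors (7.93% of all genes), 3 for genotype in metastases (12.8%) and 5 for metastasis against lung tumor in RPR2 mice (18.8%). They were 4 for the same in Nfib-floxed mice (9.39%), 1 for the interaction (9.68%) and 3 for the mean genotype effect (13.4%). The share of all genes past the adjusted threshold was 0% for genotype in lung tumors, 2.04% for genotype in metastases, 5.61% and 0.123% for metastasis against lung tumor in RPR2 and Nfib-floxed mice, 0.581% for the interaction and 0.587% for the mean genotype effect. The replicate libraries of a group differed widely for several members, and the values below are given by library for that reason.

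**Figure D1:**
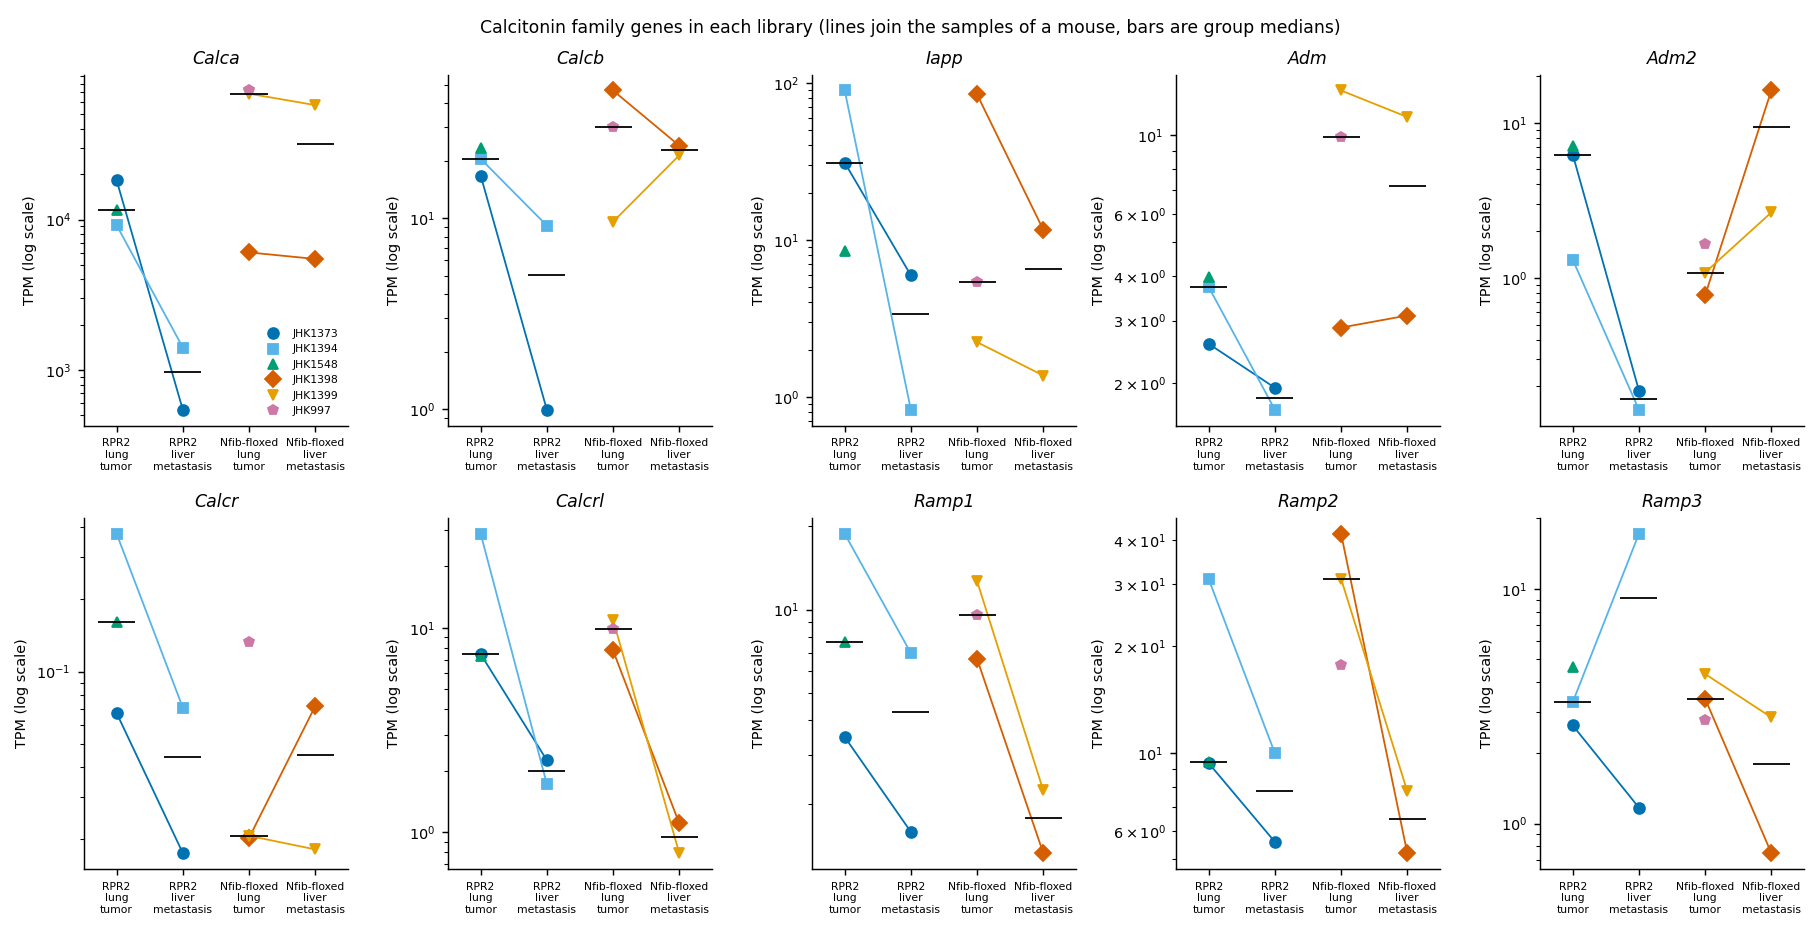
TPM of the 10 genes in each library on a log scale, by group. Symbols stand for mice, lines join the 2 tumors of a mouse, and black bars are group medians. The Calca lines of the RPR2 mice slope down steeply and those of the Nfib-floxed mice are nearly level, and Calcrl is lower in the metastasis of all 4 mice.

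Calca was the leading transcript of many of these tumors. In RPR2 lung tumors it stood at 18196 TPM (JHK1373), 9162 TPM (JHK1394) and 11505 TPM (JHK1548), a mean of 12954 ± 4688 TPM (SD, n = 3). In the RPR2 metastases it stood at 545 TPM (JHK1373) and 1410 TPM (JHK1394), below every RPR2 lung tumor. In Nfib-floxed lung tumors it stood at 6044 TPM (JHK1398), 68511 TPM (JHK1399) and 71946 TPM (JHK997), and in the Nfib-floxed metastases at 5470 TPM (JHK1398) and 57529 TPM (JHK1399). It was the most abundant of all genes in 5 libraries: the RPR2 lung tumors of JHK1373 and JHK1548, the Nfib-floxed lung tumors of JHK1399 and JHK997 and the metastasis of JHK1399. In the Nfib-floxed lung tumor of JHK997 it alone made up 7.19% of the library, against 0.0545% in the RPR2 metastasis of JHK1373, where it ranked 252. The highest library exceeded the lowest by 132-fold.

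Within a mouse, the Calca level of the metastasis was 33.4-fold below that of the lung tumor in JHK1373 and 6.5-fold below in JHK1394. In JHK1398 and JHK1399 the ratios were 1.11 and 1.19, so the Nfib-floxed metastases stood close to the lung tumor of the same mouse, in a mouse with low Calca and in a mouse with high Calca alike. The Nfib-floxed libraries thus fell into the pair from JHK1398 and the libraries of the other 2 mice, and the Nfib-floxed group means (48833 ± 37096 TPM in lung tumors, n = 3, and 31499 ± 36811 TPM in metastases, n = 2) carry a wide spread.

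The log2 difference between RPR2 metastases and lung tumors was -3.82 ± 1.18 (limma SE, adjusted p = 0.0949). The lung tumors and metastases of a mouse are pairs by design, and with mouse as a fixed block the difference was -3.88 and passed (adjusted p = 0.0293). It also passed with the RPR2 libraries fitted alone (0.0129), with quantile normalization (0.0215) and without the Nfib-floxed lung tumor of JHK1398 (0.0449), and over all alternatives the adjusted p ran from 0.0129 to 0.471. Between the genotypes, the difference in metastases was 4.34 ± 1.29 (adjusted p = 0.133) and that in lung tumors 1.32 ± 1.05 (adjusted p = 0.737). The lung difference turned to -0.56 with quantile normalization. The mean genotype effect was 2.85 ± 0.84 (adjusted p = 0.174). It passed without the metastasis of JHK1398 (3.78, adjusted p = 0.0449) and without the lung tumor of JHK1398 (3.48, 0.0411), over a range of 0.0411 to 0.432, and was 1.76 without the metastasis of JHK1399. Without the metastasis of JHK1398, the library low in hepatocyte genes, the genotype difference in metastases was 6.03 (adjusted p = 0.0834), and without that of JHK1399 it was 2.64. The interaction, which asks whether the tissue difference itself differs between genotypes, was 3.02 ± 1.67 (adjusted p = 0.644). It ran from 1.32 without the metastasis of JHK1399 to 4.72 without that of JHK1398. The lung difference ran from 0.71 without the lung tumor of JHK997 to 2.50 without that of JHK1398.

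The summed neuroendocrine markers were also lower in RPR2 metastases. The 12 markers summed to 4262 to 4660 TPM in RPR2 lung tumors, 5405 to 5639 TPM in Nfib-floxed lung tumors, 2280 and 2780 TPM in RPR2 metastases, and 2610 and 5051 TPM in the Nfib-floxed metastases of JHK1398 and JHK1399. None of the 12 was higher in a comparison past the threshold, and 1 was lower, Resp18, a secretory granule gene, in RPR2 metastases (log2 change -2.82 ± 0.58, adjusted p = 0.018). Set against this sum, Calca stood at 2.0 to 3.9 times the summed markers in RPR2 lung tumors and at 0.239 and 0.507 times in RPR2 metastases. The part of the neuroendocrine share in the Calca levels was not tested. In the Nfib-floxed libraries of JHK1399 and JHK997 the ratio was 11.4 to 13.1, and in those of JHK1398 it was 1.12 in the lung tumor and 2.1 in the metastasis. Hepatocyte genes were higher beside the low Calca of RPR2 metastases, 10 of 12 past the threshold, and their part in the result was not tested.

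The promoter of Calca, 250 bases before the start site of the RefSeq gene (GRCm38.p6, chr7:114636358-114636607, minus strand), is shown because its gene spans the widest range of levels in the family. Capitals mark the only match to 4 motifs searched on both strands, the letters TGACG, a core of the cAMP response element, which starts 65 bases before the start site.
Calca promoter: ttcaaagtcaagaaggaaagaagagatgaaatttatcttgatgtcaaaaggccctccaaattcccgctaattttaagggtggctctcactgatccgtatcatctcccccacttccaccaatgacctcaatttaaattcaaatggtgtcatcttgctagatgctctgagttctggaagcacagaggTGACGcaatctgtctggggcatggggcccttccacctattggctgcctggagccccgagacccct
The same letters were in 17.8% of 32851 promoter windows of this length. The other motifs were TGACGTCA, the full element, which contains TGACG (1.55% of windows), CACGTG, the E-box of the USF factors (6.02%), and ACGTG, the core of the hypoxia response element, which the CACGTG motif contains (16.6%). Promoter windows were found for 8 members, not for Calcb and Ramp2. Calcr was the only other member with a match, also to TGACG.

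Genes known to act on the splicing of Calca gave no calls. Of 8 regulators of the exon choice (Srsf3, Ptbp1, the Rbfox genes and the neuronal Elavl genes) none passed in any comparison. Their median log2 change in metastases against lung tumors was 1.09 in RPR2 and 0.61 in Nfib-floxed mice. Between the genotypes it was -0.43 in lung tumors and -0.58 in metastases.

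Calcb stood far below Calca in every library. Its level was 16.7, 20.4 and 23.3 TPM in the RPR2 lung tumors of JHK1373, JHK1394 and JHK1548, and 0.991 and 9.14 TPM in the RPR2 metastases of JHK1373 and JHK1394. It was 46.6, 9.57 and 30.1 TPM in the Nfib-floxed lung tumors of JHK1398, JHK1399 and JHK997, and 24.0 and 21.3 TPM in the metastases of JHK1398 and JHK1399. The RPR2 metastases lay below all other libraries, with the upper of the pair just under the 9.57 TPM of JHK1399. Calca exceeded Calcb by 130-fold in the lung tumor of JHK1398 and by 7161-fold in that of JHK1399, so Calcb did not hold a fixed share of its neighbor. The log2 difference was -2.22 ± 0.72 between RPR2 metastases and lung tumors (adjusted p = 0.11) and 2.39 ± 0.79 between the genotypes in metastases (adjusted p = 0.177). Without the RPR2 metastasis of JHK1373 these were -1.05 and 1.22, and without that of JHK1394 they were -3.40 and 3.57.

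Iapp was high in few lung tumors. It stood at 31, 89.4 and 8.48 TPM in the RPR2 lung tumors of JHK1373, JHK1394 and JHK1548, and at 84.4, 2.23 and 5.37 TPM in the Nfib-floxed lung tumors of JHK1398, JHK1399 and JHK997. In metastases it stood at 5.94 and 0.828 TPM (RPR2, JHK1373 and JHK1394) and at 11.6 and 1.37 TPM (Nfib-floxed, JHK1398 and JHK1399). The highest values were those of JHK1394 and JHK1398, the lung tumors rich in club cell genes, and the part of normal lung in this level was not tested. Other islet hormones were at or near 0: Ins1 and Ins2 were listed at 0 TPM in all 10 libraries, and Ins1, Ins2, Gcg, Sst and Ppy together summed to at most 2.93 TPM. Each metastasis was below the lung tumor of its mouse, by 1.63-fold in JHK1399 and 108-fold in JHK1394. The log2 difference in RPR2 mice was -3.08 ± 1.37 (adjusted p = 0.258) and that in Nfib-floxed mice -1.14 ± 1.37 (adjusted p = 0.849). With 1 library left out the former ran from -4.04 to -2.12 and the latter from -2.35 without the metastasis of JHK1398 to 0.27 without the lung tumor of that mouse.

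Adm levels went by mouse among the Nfib-floxed tumors, as those of Calca did. Adm stood at 2.87 and 3.1 TPM in the lung tumor and metastasis of JHK1398, at 13.4 and 11.2 TPM in those of JHK1399 and at 9.89 TPM in the lung tumor of JHK997. In RPR2 mice it stood at 2.58, 3.73 and 3.97 TPM in the lung tumors of JHK1373, JHK1394 and JHK1548 and at 1.94 and 1.68 TPM in the metastases of JHK1373 and JHK1394. The RPR2 metastases were the lowest of all libraries. The mean genotype effect was 1.14 ± 0.45 log2 units (adjusted p = 0.299), the difference in metastases 1.34 ± 0.69 (adjusted p = 0.485) and that in lung tumors 0.95 ± 0.57 (adjusted p = 0.666). Without the metastasis of JHK1399 the mean effect was 0.65 and the difference in metastases 0.55, and without that of JHK1398 they were 1.62 and 2.12.

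Adm is a known target of the hypoxia response, and 16 other genes of that response were set beside it. Of these, 4 rose in Nfib-floxed against RPR2 metastases, among them Ankrd37, a known target of the hypoxia-inducible factor (3.10 ± 0.37, adjusted p = 0.00242), the glycolytic enzyme gene Aldoa (2.17 ± 0.36, 0.0156) and Vegfa, a growth factor of vessels (2.13 ± 0.43, 0.0362), and none fell. In RPR2 metastases against lung tumors, 2 fell, Ankrd37 (-2.13 ± 0.33) and Aldoa (-1.38 ± 0.33), and none rose. Ankrd37 also passed in the interaction (2.75 ± 0.47), and Ankrd37 and Aldoa in the mean genotype effect (1.71 ± 0.24 and 1.38 ± 0.24). The list summed to 1267 and 1356 TPM in the RPR2 metastases, which had the lowest Adm, and to 1537, 4054 and 3734 TPM in the Nfib-floxed lung tumors of JHK1398, JHK1399 and JHK997. It was highest, at 7163 TPM, in the metastasis of JHK1398, where Adm was 3.1 TPM, and stood at 3200 TPM in that of JHK1399. The part of the hypoxia response in the Adm levels was not tested.

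Adm2 moved between the tissues in opposite directions in the genotypes. In RPR2 mice it stood at 6.23, 1.31 and 7.07 TPM in the lung tumors of JHK1373, JHK1394 and JHK1548 and at 0.188 and 0.141 TPM in the metastases of JHK1373 and JHK1394. In Nfib-floxed mice it stood at 0.773, 1.08 and 1.66 TPM in the lung tumors of JHK1398, JHK1399 and JHK997 and at 16.1 and 2.64 TPM in the metastases of JHK1398 and JHK1399. The metastasis was thus below the lung tumor in both RPR2 mice, by 33.1-fold and 9.26-fold, and above it in both Nfib-floxed mice, by 20.9-fold and 2.44-fold. The RPR2 metastases and some lung tumors lay under or near 1 TPM, so the folds are uncertain. Adm2 was picked for a closer look by this pattern from the 9 tested members. How many of all genes show such opposite directions was not counted. The interaction was 4.02 ± 1.02 log2 units and missed the threshold (adjusted p = 0.166, over a range of 0.0486 to 0.42 in the alternatives). It was 2.90 without the metastasis of JHK1398. Without the metastasis of JHK1399 it passed (5.14, adjusted p = 0.0486), as did the genotype difference in metastases (2.76 ± 0.79, adjusted p = 0.117, and 3.88 with adjusted p = 0.0386 without that library, but 1.64 without the metastasis of JHK1398, over a range of 0.0386 to 0.409). The RPR2 tissue difference was -2.14 ± 0.72 (adjusted p = 0.126) and passed with a pseudocount of 0.1 (-3.92, adjusted p = 0.0406, over a range of 0.0406 to 0.395), where a log difference between levels under 1 TPM counts for more.

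**Figure D2:**
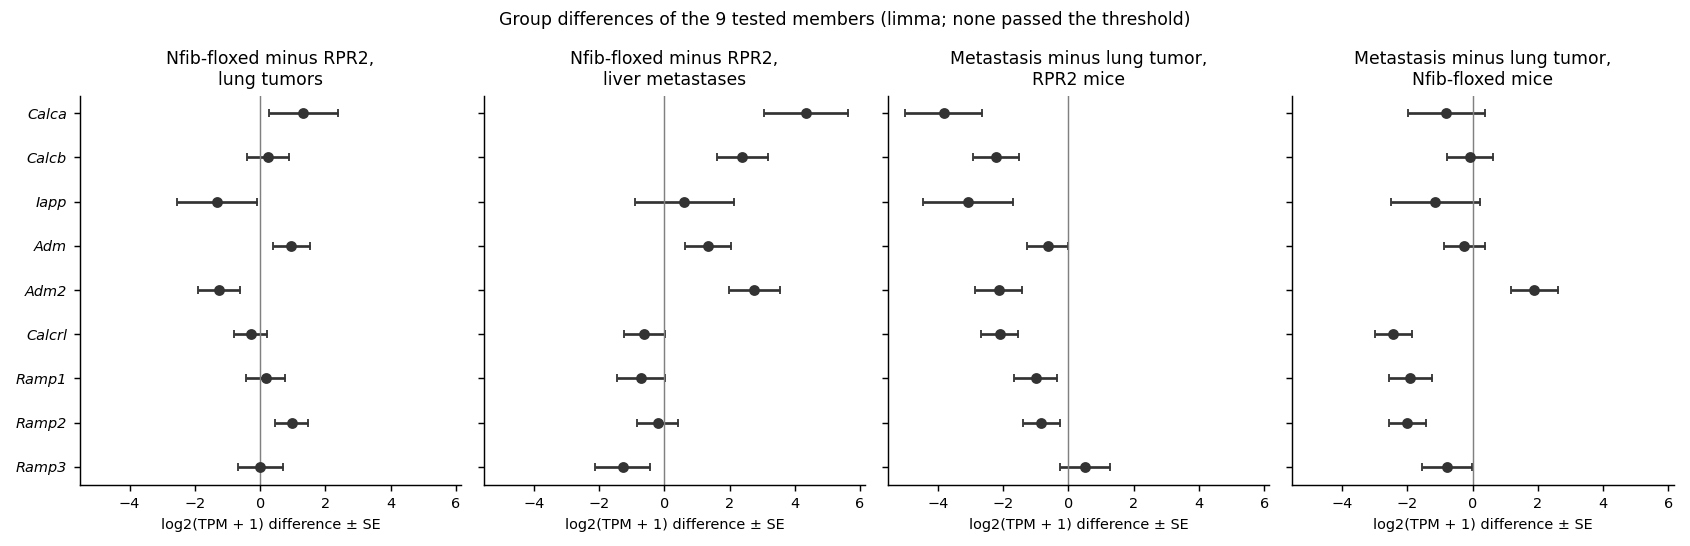
Differences of mean log2(TPM + 1) for the 9 tested members in the 4 comparisons of groups, with points for the limma estimate and bars for its standard error. Adm2 lies to the left of 0 in RPR2 mice (-2.14) and to the right in Nfib-floxed mice (1.88), while Calcrl lies at -2.10 and -2.43.

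The enzymes that turn these precursors into peptides were followed in a list of 12 genes of peptide processing and breakdown. Its only change was a fall of Pcsk1, a prohormone convertase, in RPR2 metastases against lung tumors (log2 change -2.92 ± 0.69, adjusted p = 0.0335), and none of the 12 rose in any comparison. Pcsk1 stood at 435, 596 and 330 TPM in the RPR2 lung tumors of JHK1373, JHK1394 and JHK1548 and at 26.8 and 122 TPM in the metastases of JHK1373 and JHK1394. In the Nfib-floxed metastases it stood at 194 and 424 TPM, within the 142 to 579 TPM of the Nfib-floxed lung tumors. Pam, the enzyme that amidates the peptides, was named for this role after its values were seen. It stood at 136 and 120 TPM in RPR2 metastases and at 274 to 579 TPM in RPR2 lung tumors without passing (-1.53, adjusted p = 0.176).

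Among the receptors, Calcr was close to absent from the table. It stood at 0.0671 to 0.375 TPM in RPR2 lung tumors, 0.0175 and 0.0707 TPM in RPR2 metastases, 0.0203 to 0.133 TPM in Nfib-floxed lung tumors and 0.0182 and 0.0717 TPM in Nfib-floxed metastases. All values lay under the 1 TPM filter on the mean. With no filter its log2 differences ran from -0.19 to 0.18 over the 6 comparisons, and none passed.

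Calcrl was lower in every metastasis than in every lung tumor. How many of all genes part in this way over both genotypes was not counted. Calcrl stood at 7.44, 28.9 and 7.26 TPM in the RPR2 lung tumors of JHK1373, JHK1394 and JHK1548 and at 7.76, 11 and 9.88 TPM in the Nfib-floxed lung tumors of JHK1398, JHK1399 and JHK997. The metastases held 2.25 and 1.72 TPM (RPR2, JHK1373 and JHK1394) and 1.11 and 0.792 TPM (Nfib-floxed, JHK1398 and JHK1399). Within mice the level of the metastasis was 3.3-fold (JHK1373) to 16.8-fold (JHK1394) below that of the lung tumor. The log2 differences were -2.10 ± 0.57 in RPR2 mice (adjusted p = 0.0583) and -2.43 ± 0.57 in Nfib-floxed mice (adjusted p = 0.215, and -2.54 without the metastasis of JHK1398), with an interaction of -0.33 ± 0.80. The RPR2 difference passed with a pseudocount of 0.1 (-2.50, adjusted p = 0.0475, over a range of 0.0475 to 0.293). It was -1.49 without the lung tumor of JHK1394.

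Markers of endothelium, the cell type known for this receptor, had lower median levels in metastases in both genotypes. None of 15 endothelium genes passed in any comparison, with medians of -0.47 in RPR2 mice and -1.22 in Nfib-floxed mice for metastases against lung tumors. The list summed to 126 to 204 TPM in RPR2 lung tumors, 171 to 265 TPM in Nfib-floxed lung tumors, 103 and 128 TPM in RPR2 metastases, and 88.2 and 93.8 TPM in Nfib-floxed metastases. As a percentage of this sum Calcrl stood at 4.14% to 14.1% in the 6 lung tumors and at 0.845% to 2.19% in the 4 metastases. Cldn5, a junction gene, was picked from the 15 after its values were seen and lies far from the median of -1.22. It had a mean of 17.2 TPM in Nfib-floxed lung tumors and 1.38 TPM in Nfib-floxed metastases (log2 difference -2.77, limma adjusted p = 0.196). Pecam1, another gene of the list, stood at 12.3 to 20.9 TPM in those lung tumors and at 8.58 and 7.80 TPM in those metastases. The part of vessel content in the Calcrl levels was not tested. Of 4 tested genes of the liver sinusoid, a vessel bed of its own kind, 1 rose in RPR2 metastases, Clec4g (2.91 ± 0.45, adjusted p = 0.00538). It was also lower in Nfib-floxed than RPR2 metastases (-2.51 ± 0.50, adjusted p = 0.0333). None of 6 lymphatic endothelium genes passed.

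**Figure D3:**
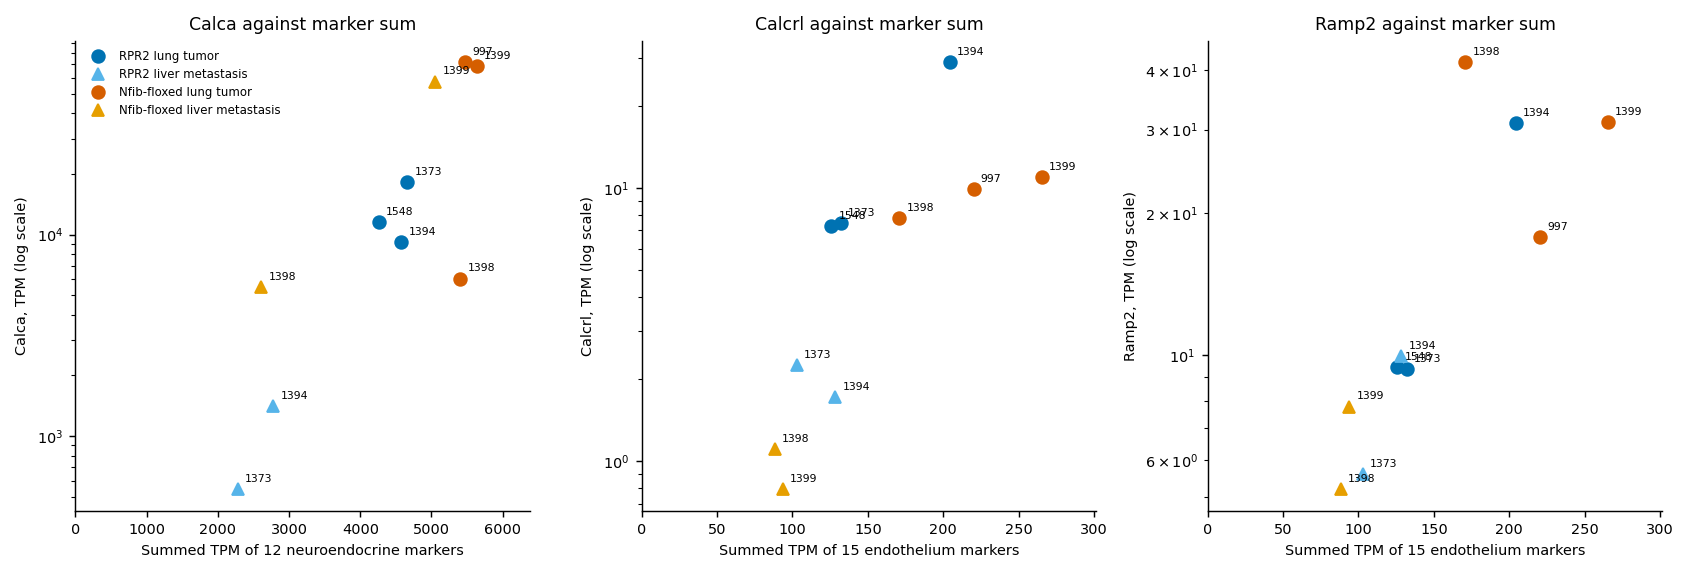
Calca against the summed TPM of 12 neuroendocrine markers, and Calcrl and Ramp2 against the summed TPM of 15 endothelium markers. Each point is a library labelled by the number of its mouse, the vertical axes are log scales, circles are lung tumors and triangles liver metastases. Calcrl stands at 7.26 TPM and above in lung tumors and at 2.25 TPM and below in metastases, and the endothelium sums run from 126 to 265 TPM in lung tumors and from 88.2 to 128 TPM in metastases.

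Ramp2, the adrenomedullin partner of CALCRL, was the most abundant of the Ramp genes in 9 of 10 libraries. It stood at 9.34, 31 and 9.41 TPM in the RPR2 lung tumors of JHK1373, JHK1394 and JHK1548 and at 41.7, 31.1 and 17.7 TPM in the Nfib-floxed lung tumors of JHK1398, JHK1399 and JHK997. The metastases held 5.59 and 9.96 TPM (RPR2, JHK1373 and JHK1394) and 5.2 and 7.77 TPM (Nfib-floxed, JHK1398 and JHK1399). Each metastasis was below the lung tumor of its mouse, by 1.67-fold in JHK1373 to 8.02-fold in JHK1398. As groups, the tissues overlapped in RPR2 mice and parted in Nfib-floxed mice. The log2 differences were -0.83 ± 0.57 (adjusted p = 0.498) and -2.0 ± 0.57 (adjusted p = 0.32), the former -0.29 without the lung tumor of JHK1394, and their own difference did not pass (-1.17 ± 0.81, adjusted p = 0.754).

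Ramp1, the partner that gives CALCRL its affinity for CGRP, stood at 3.49, 18.7 and 7.65 TPM in the RPR2 lung tumors of JHK1373, JHK1394 and JHK1548 and at 6.65, 12.7 and 9.56 TPM in the Nfib-floxed lung tumors of JHK1398, JHK1399 and JHK997. The metastases held 1.59 and 6.97 TPM (RPR2) and 1.34 and 2.24 TPM (Nfib-floxed), each below the lung tumor of its mouse, by 2.19-fold in JHK1373 to 5.64-fold in JHK1399. The log2 differences were -1.01 ± 0.67 in RPR2 mice (adjusted p = 0.478) and -1.91 ± 0.67 in Nfib-floxed mice (adjusted p = 0.421). The former was -0.20 without the metastasis of JHK1373 and -1.82 without that of JHK1394.

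Ramp3 was set by a single library. It stood at 17.1 TPM in the RPR2 metastasis of JHK1394, against 0.75 to 4.66 TPM in the other 9 libraries, and 1.17 TPM in the other RPR2 metastasis. That metastasis was also the library with the highest Nfib (643 TPM), and a link between the 2 genes was not tested. The RPR2 tissue difference of 0.50 ± 0.77 (adjusted p = 0.813) was -1.04 without the metastasis of JHK1394 and 2.03 without that of JHK1373. The genotype difference in metastases of -1.28 ± 0.84 (adjusted p = 0.638) was 0.26 and -2.81 without these libraries.

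The ratios of the receptor parts were compared by library. Relative to Calcrl, Ramp2 stood at 1.07 to 5.37 times in lung tumors and at 2.48 to 9.82 times in metastases. Ramp1 stood at 0.469 to 1.15 times in lung tumors and at 0.706 to 4.05 times in metastases. Ramp3 stood at 0.114 to 0.642 times in lung tumors and at 0.52 to 9.95 times in metastases. These ranges overlapped. Within each mouse that gave both tissues, the Ramp1 and Ramp3 ratios were higher in the metastasis. The Ramp2 ratio was higher in the metastases of JHK1373, JHK1394 and JHK1399. It was lower in that of JHK1398 (4.69 against 5.37 times in the lung tumor). The differences in these ratios were not tested. Of 27 tested genes of receptor signaling, which include Gnas, the adenylyl cyclases, protein kinase A subunits and the beta-arrestins, none passed in any comparison, with medians from -0.22 to -0.06. Crcp, which encodes a coupling protein of the CGRP receptor, was named for this role after its values were seen and stood at 15.1 to 30.6 TPM over all libraries.

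**Figure D4:**
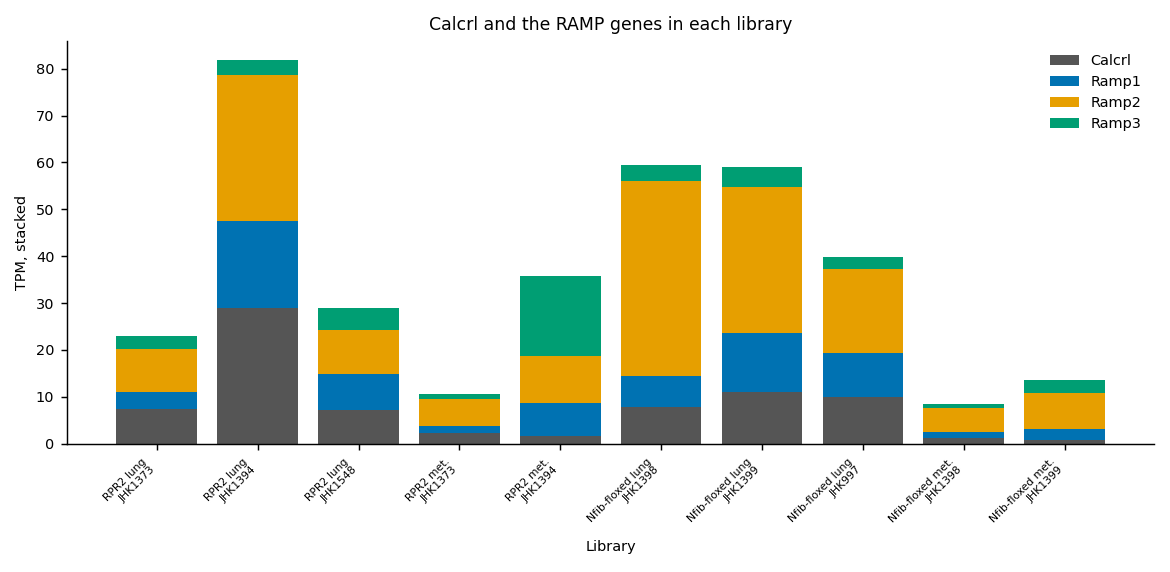
TPM of Calcrl, Ramp1, Ramp2 and Ramp3 stacked for each library. The lung tumor of JHK1394 has the tallest bar, the 4 metastases have the thinnest Calcrl segments (0.792 to 2.25 TPM), and Ramp3 is wide only in the RPR2 metastasis of JHK1394 (17.1 TPM).

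Side by side, most members had lower mean levels in metastases than in lung tumors, in both genotypes and without passing the test. In RPR2 mice 8 of 9 log2 differences were below 0, with a median of -2.10, against 59.6% of all tested genes and a median of -0.15. Over all genes, 316 rose and 553 fell there, and the split was 407 to 408 with quantile normalization and 394 to 382 with median centring, which moved the median of all genes to 0.05 and 0.09. Values did not overlap for 6 members, all lower in metastases (Calca, Calcb, Iapp, Adm, Adm2 and Calcrl), where 31% of all genes lay lower in that way and 46.1% in either direction. In Nfib-floxed mice 8 of 9 were below 0, against 53.7% of all genes, with a median of -0.81 against -0.05. Among these 8, Calcb (-0.08 ± 0.72) and Adm (-0.25 ± 0.63) lay close to 0. Calca, Calcb, Iapp and Adm changed sign in these mice with single libraries left out. There, 4 members did not overlap, Calcrl, Ramp1 and Ramp2 lower (14.8% of all genes) and Adm2 higher (7.76%), with 22.5% in either direction. The 2 tissue comparisons share no library.

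Between the genotypes in metastases, 5 members did not overlap, against 45.8% of all genes in either direction: Calca, Calcb, Adm and Adm2 higher (23.8%) and Calcrl lower (22%) in Nfib-floxed mice. In lung tumors none did, against 14.5%. The genotype comparison of metastases and the RPR2 tissue comparison share the RPR2 metastases.

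Genes whose levels went most closely with those of the members were sought among the 11509 genes whose mean reached 5 TPM, by Pearson's r of log2(TPM + 1) over the 10 libraries. The libraries share mice, groups and tissue content, so r is a description only. Closest to Calca were Pnmal2 (r = 0.98), Eogt (0.972) and Tcta (0.97), and Pnmal2 ran from 21.3 TPM in the RPR2 metastasis of JHK1373 to 208 TPM in the lung tumor of JHK997. Closest to Calcb were Tbx1 (0.964), Pgbd5 and Kiz, to Iapp Nfkb2 (0.953), Pold4 and Tmem54, and to Adm Npepl1 (0.971), Dst and Atraid. Closest to Adm2 were Exosc10 (0.957), Dynlt1b and Fbxo44. For the receptor parts, Calcrl went with Acvrl1 (0.968), Ppic and Naglu, Ramp1 with Bmp7 (0.951), Pmepa1 and Tmbim1, Ramp2 with Tsc22d3 (0.948), Adgre5 and Rps6ka4, and Ramp3 less closely with Stat5a (0.894), Fam131c and Ptpn12. Acvrl1, a receptor gene known from endothelium, stood at 6.65 to 18.8 TPM in lung tumors and at 1.14 to 2.1 TPM in metastases.

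Markers of other cells marked the same comparisons. In RPR2 metastases against lung tumors 4 of 5 club cell genes fell, among them Scgb1a1 (-8.38) and Scgb3a2 (-8.28), as did Sftpb of 6 alveolar type 2 genes and Ager of 6 alveolar type 1 genes. In Nfib-floxed metastases the club cell gene Cbr2 (-7.40) and Jchain of 3 tested B and plasma cell genes (-6.65) fell. Cyp2e1, a hepatocyte gene, was lower in Nfib-floxed than RPR2 metastases (-4.09). No gene of the fibroblast and mural cell, macrophage, T cell, neutrophil or erythroid lists passed in any comparison. The part of these cells in the members' levels was not tested.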

How the data were processed

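PolyA RNA of macrodissected, snap-frozen tumors was sequenced from NEBNext Ultra II libraries, per the labels' protocols. The submitters' processing notes name Salmon 0.12.0, bcl2fastq 2.20, R 4.1.0 and build GRCm38. The annotation, the settings and the strand are not given in the sources at hand. Values in the table are TPM per gene, as the authors deposited them. TPM keeps no depth, so no counting interval is given.

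From these values, limma 3.58.1 (R 4.3.3) was fitted on log2(TPM + 1) with 1 model of the 4 groups, for the 15503 genes whose mean reached 1 TPM, with moderated variances, a mean trend, two-sided tests and Benjamini-Hochberg adjustment. Mouse entered the mean genotype effect as a random term (correlation 0.0509). Positions and peptide stretches come from GENCODE M21 and promoters from RefSeq (GRCm38.p6). Python 3.11.15 did the rest. The labels pair lung tumors and metastases by mouse tag, and over the tested genes the deviations of a pair from their groups had correlations of -0.02, -0.01, 0.04 and 0.05. Lung tumors of a group come from separate mice, and p-values measure only the spread between these samples. The fit of the 4 comparisons of groups was tried on simulated normal values that held no mouse effect. The interaction, the mean genotype effect and the paired fit were not tried in this way.

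The members, 20 gene lists and alternatives were chosen with earlier results of these data known. Where a symbol had several entries, the one with the highest mean stood for it in a list. Named are all members, up to 3 genes of a list past the threshold in a comparison, and the 3 genes most alike each member. Antigen receptor segments and predicted genes were not named. A list of transcription regulators is not reported here.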

Additional observations from a re-analysis of the deposited data

Results flagged for a closer look

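Adm2 changed in opposite directions between the tissues of the genotypes: the metastasis was below the lung tumor in both RPR2 mice (0.188 against 6.23 TPM and 0.141 against 1.31 TPM) and above it in both Nfib-floxed mice (16.1 against 0.773 TPM and 2.64 against 1.08 TPM). The test of this difference, the limma interaction, gave 4.02 ± 1.02 log2 units and missed the threshold (adjusted p = 0.166), and levels this low carry an unknown counting error. Adm2 was picked by these opposite directions from the 9 tested members, so the directions are no test of their own. The share of all genes with such opposite directions was not counted. No group holds the 4 samples that a search for single outlying libraries needs.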

How the results depend on the processing

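Of 1077 values of the 54 member differences under the alternatives, 1021 kept their direction and their side of the threshold, 10 newly passed and 46 changed sign, none of the latter from or to a call. A member newly passed in RPR2 metastases against lung tumors with pseudocount 0.1 (2 members), quantile normalization (1), mouse as a fixed replicate block (1) and the compared groups alone (1).
The count of genes past the threshold was 1 in lung tumors with pseudocount 0.1. In metastases it was 193 for genes of at least 5 TPM and 0 with the compared groups alone, where few degrees of freedom remain. With mouse as a fixed replicate block it was 530 in RPR2 mice and 13 for the interaction, and the paired fit changed no other call. In Nfib-floxed mice it was 40 and 1 with pseudocounts 0.1 and 5, 2 with no filter, 9 with median centring and 0 with the compared groups alone. Without the 2 Scgb1a1-rich lung tumors it was 1 in Nfib-floxed mice, 24 for the interaction and 208 for the mean genotype effect.
With 1 library left out at a time, counts ran from 0 to 1 (genotype, lung; 1 without the RPR2 lung tumor of JHK1373), 127 to 388 (genotype, metastases; lowest without the RPR2 metastasis of JHK1394), 272 to 1166 (RPR2 tissue; lowest without the same metastasis), 0 to 35 (Nfib-floxed tissue; 0 without the lung tumor of JHK1398), 25 to 137 (interaction; lowest without the lung tumor of JHK1373), and 18 to 286 (mean genotype; lowest without the RPR2 metastasis of JHK1373). Members past the threshold ran from 0 to 1 in 4 comparisons. A lone sample is then assumed to vary like the other groups.
The sign changed for these values. In lung tumors between genotypes, Ramp3 was -0.0011 (pseudocount 5), -0.039 (quantile) and -0.0079 (rescaled without cell type genes), and Calca -0.56 (quantile). Without the 2 Scgb1a1-rich tumors Calcb was -0.19, Calcrl 0.45 and Ramp3 -0.014 there. In Nfib-floxed tissue, Calcb was 0.0083 and Adm 0.19 (quantile), Calcb 0.074 (mouse as a fixed block), and Calcb 0.38 and Iapp 0.27 without those 2 tumors. The interaction of Calcrl was 0.025 (pseudocount 5) and 0.017 (mouse as a fixed block), that of Adm -0.23 without those 2 tumors, and the mean genotype effect of Ramp1 0.18. The causes were not tested.
With libraries left out, genotype differences in lung tumors ran from -0.34 to 0.73 (Ramp1), -0.15 to 0.18 (Ramp3), -0.60 to 0.32 (Calcrl) and -0.21 to 0.88 (Calcb), and in metastases from -0.59 to 1.82 (Iapp), -1.54 to 0.087 (Ramp1), -0.57 to 0.16 (Ramp2) and -2.81 to 0.26 (Ramp3). Tissue differences ran from -1.04 to 2.03 (Ramp3, RPR2) and, in Nfib-floxed mice, from -2.50 to 0.89 (Calca), -1.04 to 0.53 (Adm), -0.70 to 0.38 (Calcb) and -2.35 to 0.27 (Iapp). Interactions ran from -2.81 to 0.25 (Ramp3) and -0.40 to 1.18 (Adm), and mean genotype effects from -1.21 to 0.44 (Iapp), -0.61 to 0.072 (Ramp1) and -1.41 to 0.10 (Ramp3).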
